A study of Caenorhabditis elegans with 6 samples.

Results

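The regions described here are the 807 intervals on chromosome V in the deposited file of combined EGL-43 NanoDam regions, which holds 4511 intervals in all. The rule takes every interval on this chromosome and uses no measured value. To each interval the peaks of the 3 deposited replicate lists that overlap it by 1 bp or more were attached, with their scores. Together the 807 regions covered 1124 kb, or 5.38% of the 20.9 Mb of chromosome V that the files reach.

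EGL-43 is a zinc finger transcription factor of the nematode Caenorhabditis elegans, related to the mammalian protein EVI1. It acts in the anchor cell, a cell of the somatic gonad that induces the vulva and breaches the basement membrane beneath it. In NanoDam a nanobody against GFP carries the bacterial enzyme Dam to a GFP-tagged protein, and adenines of GATC sites near that protein become methylated. DpnI cuts only methylated GATC sites, so the fragments that are amplified come from DNA near the protein, or from DNA that Dam reaches without it. Chromosome V is the longest of the worm's chromosomes. As on the other autosomes, its gene-dense, rarely recombining centre lies between arms that recombine often and are rich in repeats, and on V the arms also hold many chemoreceptor genes.

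Of 6 samples, 3 were controls of strain DQM986, which carries the single-copy NanoDam transgene bmdSi244 alone. The other 3 were of strain DQM975, which carries bmdSi244 together with egl-43(bmd88), the GFP-tagged endogenous gene. The transgene is driven by an anchor cell promoter, and the sample names carry the word lin-29 for it. Each sample was a pool of about 5000 synchronised L3 larvae, taken 24 h after feeding began at 25 °C, so the DNA came from whole animals and the restriction to anchor cells rests on the promoter alone. Whether Dam acted in other cells was not tested.

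Each replicate list sets 1 tagged sample against the control sample of the same number, so the list is the replicate and n is 3 lists. The control background is part of every score, and no value of a control sample alone was analysed. The score is the authors' own value per peak, with its scale unstated, and scores were tested within a list only. Ranks of named regions set raw scores of the lists against each other, whose medians are not equal. The depth of the libraries is unknown, and a peak missing from a list cannot be told apart from one that was sampled too thinly. Intervals given for shares are 95% Wilson intervals. They cover counting error only and treat regions as independent, which neighbouring regions may not be. Positions are on build ce10, which the submitters' processing notes name. Genes at these positions were not analysed here.

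Most regions of chromosome V did not recur between lists. Peaks of all 3 lists lay in 37 regions (4.58%, interval 3.34 to 6.26%), against 3.95% of all combined regions. Peaks of 2 lists or more lay in 86 regions (10.7%, interval 8.71 to 13.0%), against a background of 12.4%. At least 1 list had a peak in 469 regions (58.1%, interval 54.7 to 61.5%), against 61.3% of all combined regions. In the remaining 338 regions (41.9%, interval 38.5 to 45.3%) no list had a peak. Each of these background shares lay inside the interval for V. Exactly 2 lists had peaks in 49 regions (6.07%, interval 4.62 to 7.94%), below the 8.47% of all combined regions. This was not particular to V, since chromosome IV had 6.40%. Without the dense window named next, 34 of 801 regions (4.24%) had all 3 lists. At least 2 lists had peaks in 80 of these (9.99%, interval 8.10 to 12.3%), and at least 1 list in 57.8% (interval 54.4 to 61.2%). The backgrounds of 12.4% and 61.3% lay above these intervals, though only shared regions of V were left out. The shares of chromosome IV, 10.5% and 59.1% with nothing left out, lay inside them.

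The lists contributed evenly by number of regions, while their peak length on V was 331, 287 and 259 kb in lists 1, 2 and 3. List 1 had peaks in 200 regions of V, list 2 in 199 and list 3 in 193. A peak of list 1 alone was found in 127 regions, and lists 2 and 3 were each alone in 128. Among the 49 regions with exactly 2 lists, 21 held lists 1 and 2, 15 held lists 1 and 3, and 13 held lists 2 and 3. Few regions held several peaks of the same list, namely 7 regions for list 1, 6 for list 2 and 6 for list 3. Of these, 4, 3 and 3 lay in the 100 kb between 3.3 and 3.4 Mb, called the dense window here and described separately at the end. Peaks covered 54.0%, 46.9% and 14.0% of it in lists 1, 2 and 3, and other stretches of this length were not ranked.

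Regions with more lists were wider. Median widths were 957 bp with no list, 1024 bp with 1 list, 2385 bp with 2 lists and 3718 bp with all 3 lists. Without the dense window, the last 2 medians became 2230.5 and 3179.5 bp. Width and list support are not independent measures, since a region that joins peaks of several lists is wider by construction. On chromosomes I to IV together the same medians were 903, 1086, 2001 and 3036 bp. The narrowest region on V had 83 bp and the widest 20645 bp.

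**Figure D1:**
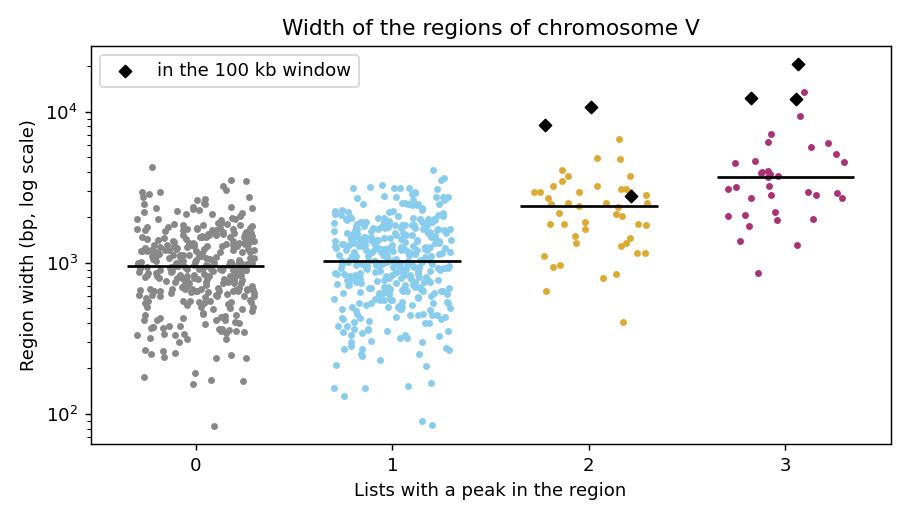
Width of each of the 807 regions of chromosome V (bp, log scale) by the number of lists with a peak in it; horizontal lines are medians and black diamonds are the 6 regions of the dense window. The medians rise from 957 bp without a list peak to 3718 bp with all 3 lists, and 4 of the 5 widest regions are diamonds.

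A shared region did not always hold a shared interval. Of the 1124 kb in regions of V, 61.3% was covered by at least 1 list, 13.2% by at least 2 and 3.53% by all 3. Without the dense window these shares were 59.1%, 9.98% and 2.95%. In 5 of the 37 regions with all lists, no base was common to all 3. In the other 32, the common core had a median of 1138.5 bp and ranged from 1 to 3195 bp. A core of a single base was seen in chrV:10869236-10872398 and in chrV:15185558-15188480, where peaks of different lists met end to end. Peaks of lists 2 and 3 overlapped by exactly 1 bp in 6 of 53 overlapping pairs, against 3 of 67 pairs for lists 1 and 2 and 1 of 60 pairs for lists 1 and 3.

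Exactly 1 region, chrV:1378629-1379932, was covered from end to end by the same peak in each list. Identical peaks were otherwise a minority, with 6 of 67 pairs for lists 1 and 2 (8.96%), 5 of 60 for lists 1 and 3 (8.33%) and 6 of 53 for lists 2 and 3 (11.3%). A common first or last base was found in 37.3%, 38.3% and 32.1% of these pairs. Without the dense window, a common end was found in 46.2%, 43.1% and 34.8% of pairs and identical peaks in 11.5%, 9.80% and 13.0%. Of the 469 regions with a list peak, 75 (16.0%) reached beyond the outermost list peaks in them, so their extent was not set by the 3 lists alone.

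Of the regions that all lists share, the 3 ranked highest by score lay in the left arm and the centre, and rank 4 in the right arm. Regions were ranked by the lowest of their 3 scores, where a list's score is that of its highest peak in the region. The highest-ranked, chrV:1804737-1806676, scored 4.66 in list 1, 4.13 in list 2 and 5.80 in list 3. Its list 3 peak had the highest score of all 1215 peaks of that list, on any chromosome, and its list 1 peak ranked 6 of 1210. Lists 1 and 2 had the same 1248 bp peak there, chrV:1804737-1805984, and list 3 began at the same base and extended to the end of the region.

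The region chrV:1378629-1379932, identical in the 3 lists, scored 4.92, 3.82 and 3.62 in lists 1, 2 and 3. Its score in list 1 ranked 3 of 1210. In the centre of the chromosome, chrV:9730652-9734369 scored 3.88, 3.58 and 4.21. List 3 covered all of its 3718 bp, list 1 covered 3586 bp and list 2 covered 2531 bp in 2 peaks. These 3 regions were the only ones on V whose lowest score was above 3, while the median of the lowest score over the 37 was 2.21. That they scored above the list median for V in every list follows from this ranking.

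The next ranks had lower scores. In the right arm, chrV:14499607-14508939 scored 3.08, 2.83 and 3.34 in lists 1, 2 and 3, and the interval common to the lists was 1672 bp of its 9333 bp. In the left arm, chrV:1585328-1589393 scored 2.66, 3.49 and 2.73, with a common core of 514 bp. Also in the left arm, chrV:809808-813743 scored 3.53, 2.64 and 3.05, with a core of 1084 bp. The high list differed among these 3 regions, being list 3, list 2 and list 1 in turn.

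Several of the named regions were wide domains with little common ground. The second-widest region of V, chrV:11070417-11083965, had 13549 bp and scored 3.52, 2.58 and 2.60. List 1 had 3 peaks in it, including one of 8571 bp with a score of 2.66, list 2 had 1 peak and list 3 had 3 peaks. The core common to all lists was 548 bp, from 11081679 to 11082226, which is 4.04% of the region. It matched the list 1 peak with the score of 3.52 from end to end. In chrV:9267648-9274806, with scores of 2.66, 2.66 and 2.45, the peaks of the lists lay side by side over 7159 bp and no base was common to all 3.

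Other regions named by their scores had cores over more of their length. In chrV:11480998-11486845 the scores were 3.19, 2.55 and 3.89 and the core had 2134 bp. Near the right end of the chromosome, chrV:20412933-20417490 scored 3.16, 2.55 and 3.01 and had a core of 1867 bp. The region chrV:13308423-13312180 scored 3.54, 2.98 and 2.48, and its core of 3136 bp made up 83.4% of it. The lowest score was in list 2 for the first and the second of these regions and in list 3 for the last.

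**Figure D2:**
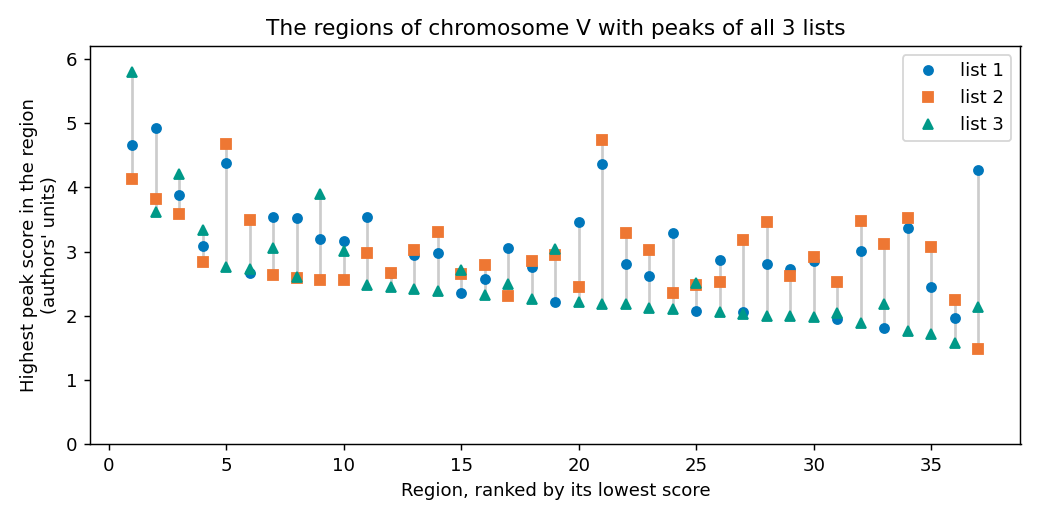
Highest peak score of each list (authors' units) in the 37 regions of chromosome V with peaks of all 3 lists, ranked by the lowest of the 3 scores; a grey line joins the lowest and the highest. Only the first 3 regions stay above 3 in all lists, and regions 5, 21 and 37, the 3 that lie in the dense window, have wide spreads.

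Across the 37 regions, the lowest score was that of list 3 in 22 regions, of list 2 in 9 and of list 1 in 6. The median score in these regions was 2.94 in list 1, 2.92 in list 2 and 2.33 in list 3, set against medians over all V peaks of 2.39, 2.67 and 2.05. In 23 of the 37 regions each list had a peak with a false discovery rate (FDR) at or under 0.001. The same joint count over all combined regions is not given here, so the 23 cannot be read as high or low for V. Shares of single peaks are a different measure and no background for that joint count. Over all peaks of V, the limit was met by 72.0% in list 1, 66.7% in list 2 and 68.7% in list 3, against 68.8%, 68.7% and 71.9% over all chromosomes.

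Peaks in regions that another list shared were higher and wider than the rest. In list 1 the median score on V was 2.75 for shared against 2.25 for unshared peaks, in list 2 it was 2.83 against 2.605, and in list 3 it was 2.20 against 1.97. The mean difference was 0.32 ± 0.16 (SD, n = 3 lists), above 0 in 3 of 3 lists, and 0.29 ± 0.10 without the dense window. The exact two-sided sign-flip permutation test over 3 lists gave p = 0.25 in both cases, which is the smallest value that 3 lists allow. The width differed by a mean of 615 ± 127 bp in the same direction in all 3 lists (exact permutation p = 0.25, the smallest possible). Width and sharing are not independent measures, since a wider peak can more easily lie in a region with a peak of another list. The same holds for the score as far as it rises with width. Width and score rose together on V, with a Spearman's rho of 0.36, 0.23 and 0.49 over the 211, 207 and 201 peaks of lists 1, 2 and 3. Without the dense window rho was 0.28, 0.19 and 0.48. These peaks share libraries and are not replicates.

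Strong peaks could also be private to a list. Among regions with a single list, the highest score was 3.52 in list 1, at chrV:8230353-8232135, 4.20 in list 2, at chrV:2699824-2702923, and 3.19 in list 3, at chrV:7727671-7730414. These 3 regions were picked after their values were seen. In list 2 the next highest, 4.11, belonged to a peak of 148 bp at chrV:4574655-4574802. The medians of single-list regions were 2.25, 2.605 and 1.975 in lists 1, 2 and 3.

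Where 2 lists overlapped on V, their scores were weakly related. Spearman's rho was 0.32 over 67 pairs of lists 1 and 2, 0.24 over 60 pairs of lists 1 and 3, and 0.20 over 53 pairs of lists 2 and 3. Without the dense window it was 0.25, 0.30 and 0.13. Pearson's r was higher, at 0.39, 0.40 and 0.26 with the window and 0.43, 0.58 and 0.32 without it. These are descriptions across peaks, which share libraries and base composition.

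Regions were denser in the centre of chromosome V than in its arms. The span was cut into 3 equal parts of 6.97 Mb, with the centre from 6.97 to 13.9 Mb. The centre held 371 regions (46.0% of 807, interval 42.6 to 49.4%, against 33.3% of the span), the left arm 251 and the right arm 185. This made 53.3 regions per Mb in the centre, 36.0 in the left arm and 26.6 in the right arm. The right arm of V had the lowest density among all arms of the 6 chromosomes. The next lowest were both arms of IV, with 33.4 regions per Mb each. Regions of the centre were also wider, with a median of 1231 bp against 966 bp in the left and 949 bp in the right arm.

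The peaks of each list followed the same order. Of the 211 V peaks of list 1, 103 lay in the centre, 69 in the left arm and 39 in the right arm. List 2 had 91, 74 and 42, and list 3 had 89, 72 and 40. The central share was thus 48.8%, 44.0% and 44.3%, a mean of 45.7 ± 2.7% (SD, n = 3 lists). Each list exceeded the 33.3% of the span, by a mean of 12.4 percentage points (exact two-sided sign-flip permutation p = 0.25, the smallest possible). Without the dense window, which holds peaks of an arm only, the excess was 14.8 ± 3.4 points.

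The central share was higher on V than on chromosomes I to IV pooled in each list. It exceeded theirs by 10.1 points in list 1, 11.2 in list 2 and 1.46 in list 3, a mean of 7.58 ± 5.33 (SD, n = 3 lists, exact permutation p = 0.25, the smallest possible). The difference in list 3 was far smaller than in the other lists, and there chromosome IV alone had a central share of 46.7%, above the 44.3% of V. Without the dense window, which lies in an arm of V, the differences were 13.3, 13.4 and 3.29 points, larger by construction. Among combined regions, the central share was 46.0% on V, and between 41.3% on I and 43.5% on IV for the other autosomes, while X had 33.3%.

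Bins of 1 Mb showed a steep fall towards the right end. From 8 to 13 Mb each bin held between 56 and 61 regions. The bin from 13 to 14 Mb held 47, that from 15 to 16 Mb held 36, that from 17 to 18 Mb held 19 and that from 18 to 19 Mb only 6. The last bin, of 0.899 Mb, held 27. The 3 widest stretches without any region were also in the right arm, the widest of 373 kb from 18699730 to 19072984 and the next of 255 kb from 18442647 to 18697854. Between these empty stretches lay a single region. The bin from 18 to 19 Mb had 0, 0 and 2 peaks in lists 1, 2 and 3.

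**Figure D3:**
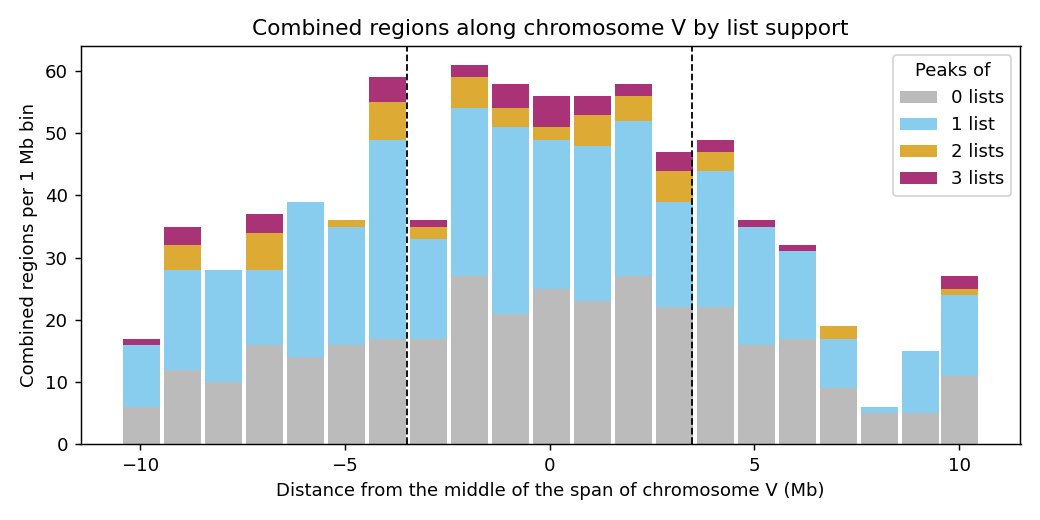
Combined regions of chromosome V per 1 Mb bin, by the number of lists with a peak in the region; the x axis is the distance from the middle of the span (Mb) and dashed lines bound the centre. Bins of the centre reach 61 regions, and the bin that starts at 18 Mb, in the right arm, holds 6.

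The left arm had its own gaps and crowded bins. The bin from 6 to 7 Mb, at the edge of the centre, held 59 regions, of which 10 had peaks of 2 lists or more. List 3 contributed 28 peaks to it, list 1 contributed 16 and list 2 contributed 12. In the bin from 2 to 3 Mb the lists had 5, 12 and 1 peaks, and none of its 28 regions was shared. None of the 39 regions from 4 to 5 Mb was shared either. Across the 21 bins, Spearman's rho of peak numbers was 0.82 for lists 1 and 2, 0.84 for lists 1 and 3, and 0.62 for lists 2 and 3, as a description of bins that differ in sequence content.

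The share of regions that recurred was lowest in the right arm, but the intervals of the parts overlapped. Regions with 2 lists or more were 46 of 371 in the centre (12.4%, interval 9.43 to 16.1%). They were 28 of 251 in the left arm (11.2%, interval 7.83 to 15.7%) and 12 of 185 in the right arm (6.49%, interval 3.75 to 11.0%). The parts also differ in region density and width, which was not adjusted for. Of the 37 regions with all lists, 20 lay in the centre, 11 in the left arm and 6 in the right arm. In the left arm without the dense window, 22 of 245 regions (8.98%) had 2 lists or more and 8 had all 3. The interval of this 8.98% share still overlapped those of the centre and the right arm. By regions with 2 lists or more, the left arm thus lay between the centre and the right arm with or without the window. Without it, 46 of the 80 remaining shared regions of V (57.5%, interval 46.6 to 67.7%) were central, against 53.5% with it.

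Counted by peaks with the dense window included, the right arm had the lowest recurrence in every list, but without the window the left arm was lowest in list 3. Peaks whose region held a peak of another list made up 28.2%, 26.2% and 27.5% of the right-arm peaks in lists 1, 2 and 3, against 39.8%, 44.0% and 42.7% in the centre. The difference between centre and right arm was 14.9 ± 3.1 percentage points (SD, n = 3 lists, exact permutation p = 0.25, the smallest possible). For the left arm the values were 46.4%, 37.8% and 31.9% with the dense window and 33.9%, 28.1% and 23.4% without it. List 1 therefore had a higher recurring share in the left arm than in the centre only with the window included. With the window, the centre exceeded both arms together by -0.01, 10.3 and 12.3 points (exact permutation p = 0.5). Without it the values were 8.23, 16.6 and 17.7 points, higher by construction, since recurring peaks of an arm were left out.

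**Figure D4:**
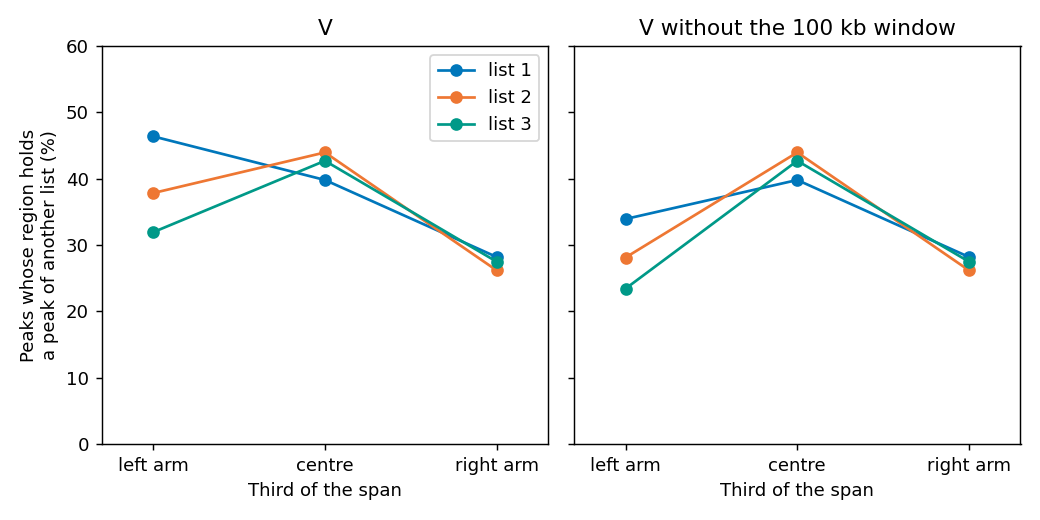
Percentage of V peaks whose region also holds a peak of another list, by part of the span and list, with (left) and without (right) the dense 100 kb window. The right arm is lowest in every list with the window, at 26.2 to 28.2%, and the left-arm value of list 1 falls from 46.4 to 33.9% when the window is left out.

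On I to IV pooled, the same difference between centre and arms was 3.49, 7.20 and -1.32 points. The excess of V over these chromosomes was 4.43 ± 8.65 points with the dense window (exact permutation p = 0.75) and thus within the spread between lists. Without the window it was 11.1 ± 7.3 points. Leaving out recurring peaks of an arm of V, and nothing from I to IV, raises this value by construction, so its sign is no support.

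Over the whole chromosome, recurrence on V was like that elsewhere. The recurring share of V peaks was 39.8% in list 1, 38.2% in list 2 and 35.8% in list 3, against 41.2%, 37.3% and 36.6% over all peaks of these lists. It differed from that on I to IV by -2.38, 1.89 and -0.19 points, a mean of -0.23 ± 2.14 (SD, n = 3 lists, exact permutation p = 0.75). Without the dense window the differences were -6.33, -1.24 and -2.85 points, a mean of -3.48 ± 2.60 (exact permutation p = 0.25, the smallest possible). Every region of that window is shared between lists and nothing was left out on I to IV, so the fall from the mean with the window follows from the construction. With the window included, the sign of the difference changed with the FDR limit and with the lists used, so no direction was shown.

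Scores did not separate the centre from the arms in all lists. The median score in the centre was 2.28 in list 1, 2.62 in list 2 and 2.05 in list 3, and in the arms 2.51, 2.74 and 2.045. The difference averaged -0.12 ± 0.12 (SD, n = 3 lists, exact permutation p = 0.5), with list 3 on the other side of 0. The highest scores were more common in the left arm in lists 1 and 2. Of its peaks, 20 of 69 in list 1 and 19 of 74 in list 2 lay in the upper 10% of the whole list by score, against 8 of 103 and 5 of 91 central peaks. In list 3 it was 6 of 72 left-arm and 8 of 89 central peaks. In the right arm it was 3 of 39 in list 1, 6 of 42 in list 2 and 7 of 40 in list 3, so list 3 had its largest share of such peaks there. Without the dense window the left-arm counts became 8 of 56, 12 of 64 and 5 of 64, so in list 1 most of these peaks lay in that window.

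The 338 regions without a list peak had a median width near that of single-list regions and lay farther from supported neighbours. Their widest member had 4270 bp. The nearest other region with a list peak was at a median distance of 12.6 kb, against 9.93 kb for regions of 1 list, 8.78 kb for regions of 2 lists and 8.69 kb for regions of all 3. Within 10 kb of a supported neighbour lay 43.2% of regions without a list peak and 62.2% of those with all 3 lists. These sets differ in their share in the dense centre, 47.6% for regions without a list peak and 54.1% for those with all 3 lists, which was not adjusted for. By part of the chromosome, 36.3% of left-arm regions, 43.4% of central regions and 46.5% of right-arm regions had no list peak.

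The dense window between 3.3 and 3.4 Mb held 6 regions that spanned 80.5 kb from 3312072 to 3392620 and covered 66.8 kb of it. It was set aside because its coverage had been singled out earlier in these data. Every region in it had peaks of at least 2 lists. The nearest region to the left ended at 3278096 and the nearest to the right began at 3402027. Its 6 regions are 5.94% of the length of all V regions. They hold 28.7% of the V length that at least 2 lists cover and 21.3% of the length that all 3 lists cover.

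The lists differed in this window. List 1 had 13 peaks there that made up 16.3% of its peak length on V, list 2 had 10 peaks with 16.4%, and list 3 had 8 peaks with 5.41%. Peaks of list 1 in it scored from 2.95 to 4.37, all above the list's median for V. Scores ran from 1.49 to 4.78 in list 2 and from 1.90 to 3.15 in list 3. Of the 6 list 1 peaks of V that scored 4 or more, 4 lay in the window, as did 6 of the 9 of list 2 and neither of the 2 of list 3. The widest peak of V was in the window for lists 1 and 2, with 10594 and 11114 bp, but not for list 3.

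From left to right, chrV:3312072-3314844 scored 3.14 in list 1 and 3.15 in list 3 and had no peak of list 2. The region chrV:3316209-3324373 scored 3.69 in list 1 and 4.78 in list 2 and had no peak of list 3. The same 2 lists alone had peaks in chrV:3346212-3357012, with scores of 3.68 and 3.88. Thus list 3 was missing from 2 of the 6 regions and list 2 from 1.

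The other 3 regions had all lists. In chrV:3357686-3369986, of 12301 bp, the scores were 4.37, 4.67 and 2.76. The widest region, chrV:3371976-3392620, scored 4.36, 4.73 and 2.19, from 4 peaks of list 1, 4 of list 2 and 3 of list 3. In chrV:3332271-3344407, of 12137 bp, the scores were 4.27, 1.49 and 2.14. In these 3 regions list 3 scored below list 1 throughout.

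The list 2 peak behind the score of 1.49 went against the rest of its list. It ran over 11114 bp, from 3333089 to 3344202, and was the widest of the 1158 peaks of list 2, with an FDR of 1.1e-21. It also had the lowest score of them all, the next lowest being 2.01. Over the same stretch list 1 had peaks that scored 4.27 and 3.38 and list 3 had peaks that scored 1.90 and 2.14.

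**Figure D5:**
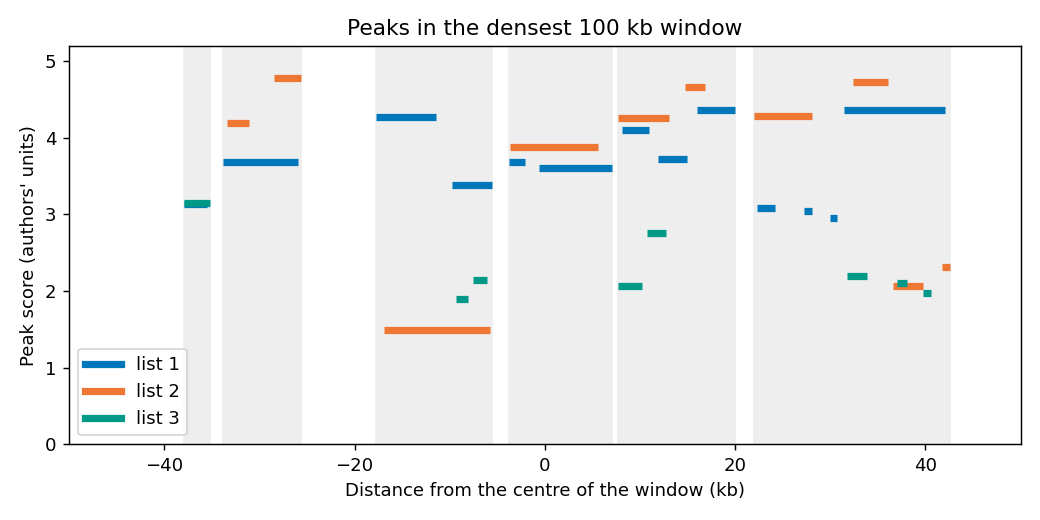
Peaks of the 3 lists in the dense 100 kb window, drawn at their extent (x axis, distance from the window's centre in kb) and score (y axis, authors' units); grey bands are the 6 combined regions. List 1 stays between 2.95 and 4.37, list 3 between 1.90 and 3.15, and the widest list 2 peak lies at 1.49 below all others.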

How the data were processed

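NanoDam libraries of 3 control and 3 EGL-43::GFP samples were amplified over 4 and then 19 cycles and sequenced on a MinION, per the labels' protocols. The submitters' processing notes name minimap2, SAMtools and build ce10. The peak caller is not given in the sources used here. The authors deposited 3 peak lists, whose score column holds their own value per peak, with an FDR under 0.01 beside it, and a file of combined positions, whose making is not stated. Starts in that file were raised by 1. Library depth is unknown.

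Peaks were attached to regions at 1 bp or more in Python 3.11.15 (scipy 1.17.1, pandas 2.3.3, numpy 2.4.6); the overlap code was tested on simulated regions. The end of V was taken as the last base reached, 20898577. A peak recurred if its region held a peak of another list. Differences between parts or chromosomes were taken per list and tested with exact sign flips over 3 lists. Named regions were the 12 with all 3 lists whose lowest score was highest, the 5 widest, and those of the dense window in all 3 lists. The members, the window and the tests were chosen with earlier results of these data known. No genome or annotation of ce10 was used here, so genes and sequences are not reported.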

Additional observations from a re-analysis of the deposited data

How the results depend on the processing

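Regions of V in at least 2 lists fell from 86 to 50 when peaks of a list had to cover 50% of a region, and regions in all 3 lists fell from 37 to 11 under that rule and to 23 with an FDR at or under 0.001. Without 1 replicate, both other lists had peaks in 50 to 58 regions, a quantity unlike the 37 or the 86. With the centre widened to the middle 50% of the span, by construction its share rose to 66.4% for all regions and to 73.3% for those in at least 2 lists. The difference in recurring share between V and I to IV, -0.23 points, turned to 5.21 with the stricter FDR (exact permutation p = 0.25) and to 0.95 with 50% coverage (p = 0.75, exact permutation), and without 1 replicate lay between 0.25 and 4.65; the cause was not tested.

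No paired analysis was possible because the values of single samples were not used, and a list gives only the contrast of its own 2 libraries. Since 3 lists cannot give a p under 0.25, no test here could pass 0.05.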
